A study of Mus musculus with 6 samples.

Results

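The genes described here are the Wnt ligands, their receptors and co-receptors, the secreted antagonists and agonists, and the intracellular and nuclear components of canonical Wnt signalling, in pharyngeal tissue of mouse embryos with and without *Pax9*. They were chosen by symbol, as every row of the expression table named *Wnt*, *Fzd*, *Sfrp*, *Dkk*, *Rspo*, *Wif1*, *Lrp5*, *Lrp6*, *Axin*, *Lef1*, *Tcf7*, *Tcf7l*, *Nkd*, *Notum*, *Porcn* or *Ctnnb1* with its family number. This gave 47 of the 14647 listed genes, and all 47 had the mean of at least 0.5 RPKM (read density scaled to transcript length and library size) that was required for testing, as did 13547 genes of the table. By role they were 15 ligands, 11 receptors and co-receptors, 8 secreted antagonists, 3 R-spondins, 5 genes of signal transduction and feedback, 4 transcription factors and the acyltransferase gene *Porcn*.

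RNA was sequenced from the dissected pharyngeal arch region of 3 *Pax9*-null (*Pax9*-/-) and 3 wild-type (*Pax9*+/+) embryos at E9.5, each embryo giving one library. The embryos were stage-matched, of both sexes and on a C57Bl/6J background, and the null allele is constitutive, so that its loss is not restricted to the endoderm. The tissue was whole and contained several cell types, and in such bulk RNA fewer cells of a type and less RNA per cell cannot be told apart. Effective library sizes, worked out from the deposited values, were 11579727, 11509904 and 11728253 reads in the *Pax9*-null group (replicates 1 to 3) and 12692325, 12352676 and 12578348 in the wild-type group.

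Wnt proteins are secreted, lipid-modified signals. In the canonical pathway they bind a Frizzled receptor together with the co-receptors LRP5 or LRP6, which stops a cytoplasmic complex built on AXIN and APC from destroying β-catenin. The stabilised β-catenin enters the nucleus and switches on target genes through the TCF/LEF transcription factors, and several of those targets (*Axin2*, *Nkd1*, *Notum*) encode inhibitors that feed back on the pathway. Dickkopf, sFRP, WIF1 and NOTUM proteins block the signal outside the cell, whereas R-spondins strengthen it by keeping receptors at the membrane. In the pharyngeal region Wnt signalling is known for its roles in the neural crest, in the outflow tract and heart field, and in the patterning of the endodermal pouches.

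The TCF/LEF factors recognise the core CTTTGAT. To show what such a core looks like in the genes described here, it was searched on both strands in the RefSeq promoter windows of GRCm38.p6, from 250 bases before to 50 bases after each RefSeq start of a gene. Windows were found for 33 of the 47 genes. The core was present in 2 of the 33 (6.06%) and in 3 of 52 other Wnt pathway genes (5.77%), against 1160 of the 27025 genes with a window (4.29%). The members with a core were the ligand genes *Wnt11* (chr7:98835041-98835087, plus strand, core 51 bases before the start and on the opposite strand) and *Wnt5b* (chr6:119449431-119449477, minus strand, core 71 bases before a RefSeq start that lies inside the gene as GENCODE M21 annotates it). The known Wnt target *Sp5* (chr2:70474799-70474845, plus strand, core 104 bases before the start) is shown beside them. Each sequence is written along the gene's strand with the core, or its reverse complement ATCAAAG, in capitals.
Wnt11: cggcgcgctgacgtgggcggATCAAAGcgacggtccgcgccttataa
Wnt5b: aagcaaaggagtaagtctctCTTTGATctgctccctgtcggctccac
Sp5: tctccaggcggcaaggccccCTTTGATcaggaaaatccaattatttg
Of the 8 members called lower in *Pax9*-null embryos (described below), 5 had a window, and none of those windows held these letters. The 100 bases before the gene start are shown for *Wif1* (chr10:121033860-121033959), the member with the largest difference between genotypes, and for the feedback gene *Axin2* (chr11:108920249-108920348), both on the plus strand and, with no core, in lower case throughout.
Wif1: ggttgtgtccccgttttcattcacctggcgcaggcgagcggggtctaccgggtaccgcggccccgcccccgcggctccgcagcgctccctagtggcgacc
Axin2: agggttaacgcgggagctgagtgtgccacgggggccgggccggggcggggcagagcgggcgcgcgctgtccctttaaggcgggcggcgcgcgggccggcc
The GC content was 73.0% in the *Wif1* stretch and higher still in the *Axin2* stretch, against a median of 55.0% in the 100 bases before the start over all RefSeq windows.

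*Pax9* itself (ENSMUSG00000001497, chr12:56691767-56712822, GRCm38) gave the check of the genotypes. Its log2 RPKM was −0.43, −0.63 and −0.59 in the *Pax9*-null libraries and 0.63, 0.71 and 0.96 in the wild-type libraries, with no overlap. The log2 difference was −1.32 (SE 0.19, limma adjusted *P*=0.0155), which put the mutant level at 40.1% of wild-type. In the *Pax9*-null libraries 43, 37 and 39 reads were left on the gene, against 99, 102 and 123. *Pax9* was called lower whichever of the 6 libraries was left out.

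Of the 47 Wnt genes, 8 passed the study's threshold (limma adjusted *P* of 0.1 or less) as lower in the mutant and none as higher. The 8 were the secreted antagonists *Wif1* and *Notum*, the receptor genes *Fzd1* and *Lrp5*, and 4 genes whose products restrain the pathway inside the cell, namely *Axin1*, *Axin2*, *Nkd1* and *Nkd2*. They made up 17.0% of the members, against 12.0% of all tested genes called lower and 14.7% called higher. Called or not, 37 of the 47 members (78.7%) had a lower mean in *Pax9*-null libraries, against 50.2% of all genes. The median log2 difference was −0.20 for the members and −0.00 for all genes.

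Every *Pax9*-null library lay below every wild-type library in 11 members (23.4%), against 20.1% of all genes, and above in 1 member, *Fzd5* (2.13%), against 21.8% of all genes. In the other 35 members the genotypes overlapped. *Pax9*-null replicate 1 gave the lowest of the 6 values in 21 members (44.7%, against 21.2% of all genes) and *Pax9*-null replicate 3 in 10 (21.3%, against 17.1%). Wild-type replicate 1 gave the highest in 20 (42.6%, against 29.9%) and wild-type replicate 3 in 16 (34.0%, against 14.3%).

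The calls depended on single libraries. Without *Pax9*-null replicate 1 or without *Pax9*-null replicate 3, no member was called, and over all genes the count of lower calls went from 1621 to 40 and 22. Without wild-type replicate 3 the number of members called was 5, and the lower calls over all genes were 900. *Pax9*-null replicates 1 and 3 also stood out for red cell transcripts. The 5 primitive erythroid markers used here summed to 4850, 2620 and 4403 RPKM in *Pax9*-null libraries and to 2371, 2480 and 2432 RPKM in wild-type libraries, with *Hbb-y*, an embryonic globin, the most abundant. Of these, *Hbb-bh1* (adjusted *P*=0.0670) was called higher, but not without *Pax9*-null replicate 1 (0.231), *Pax9*-null replicate 3 (0.195), wild-type replicate 1 (0.118) or wild-type replicate 3 (0.121). Removal of length and GC trends, described below, turned its log2 difference from 0.78 to −0.05 (adjusted *P*=0.899). That of *Hbb-y*, which was not called, went from 0.59 to −0.15. The other 3 stayed above 0, from 0.54 to 0.19 for *Hba-x*, 0.64 to 0.28 for *Hba-a1* and 0.39 to 0.40 for *Alas2*, and none of the 5 was called then. Their part in the Wnt gene differences was not tested.

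Fold changes in these libraries also followed gene length and GC content. Over all tested genes, Spearman's rho of the log2 difference was −0.40 with length and −0.44 with GC content. The Wnt genes were of similar length to the rest (median 3924 bases against 4170) but richer in GC (53.9% against 49.3%). When smooth trends with length and GC content were removed library by library, the median log2 difference of the members moved from −0.20 to −0.07. In that fit 27 of the 47 had a lower mean in *Pax9*-null libraries, against 6901 of the 13524 genes tested. *Wif1* was the one member still called lower (2.13%, against 1.92% of all genes called lower and 1.80% called higher). The trends were fitted without regard to genotype, so a genotype difference that follows length or GC content is removed with them. Whether the trends are technical was not tested.

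**Figure D1:**
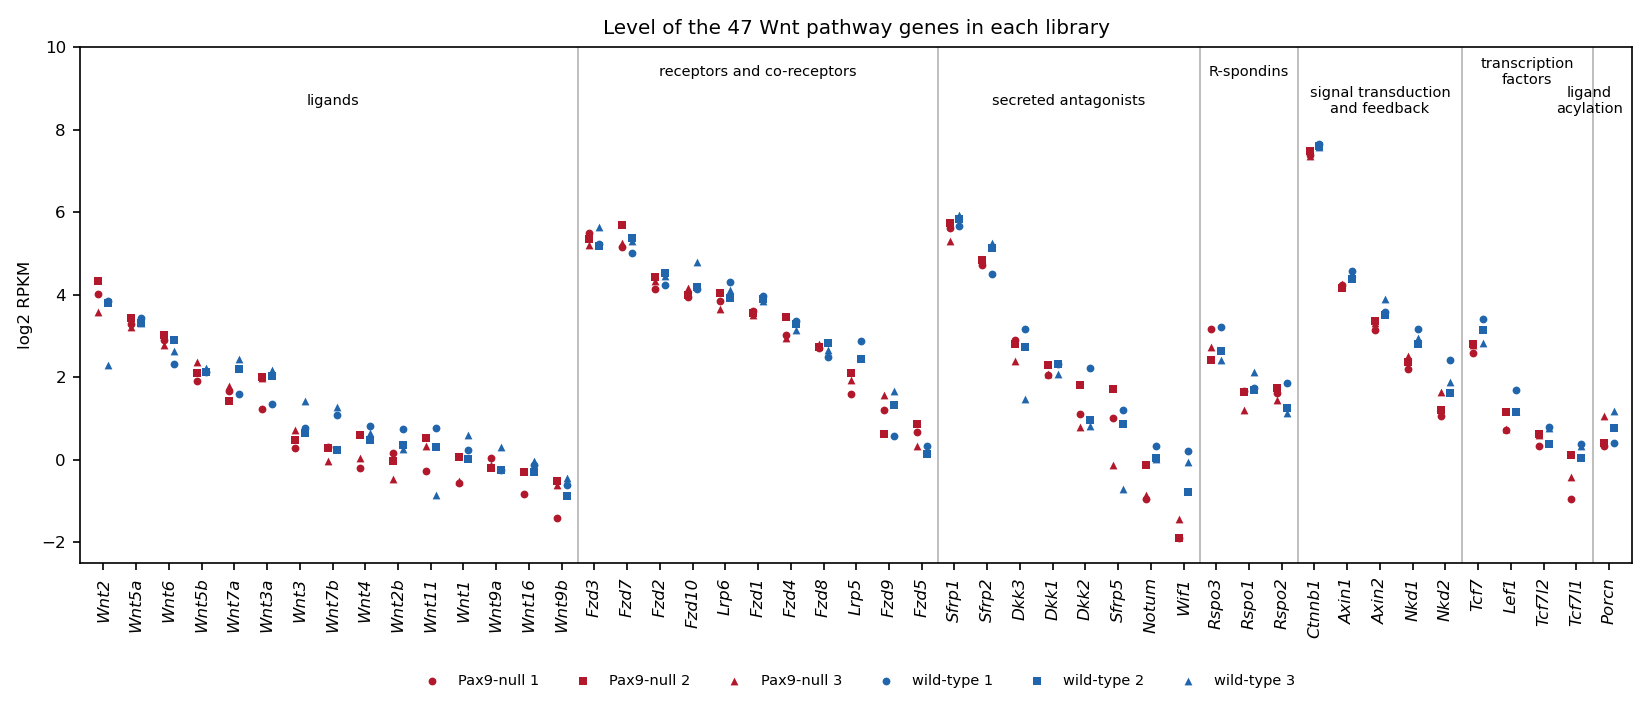
Level of each of the 47 Wnt pathway genes in log2 RPKM, grouped by role and ordered by mean level within a role; each point is one library, red for *Pax9*-null and blue for wild-type, with a circle, square or triangle for replicate 1, 2 or 3. Levels ran from *Wif1* at a mean of 0.601 RPKM to *Ctnnb1* at 182 RPKM, and the red and blue points overlapped in 35 of the genes.

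Among the ligands, 15 *Wnt* genes were present and none was called different between genotypes (lower calls in all genes, 12.0%; higher calls, 14.7%). The most abundant was *Wnt2* (ENSMUSG00000010797, chr6:17988940-18030585), a ligand known from the heart field and the embryonic vasculature, at a mean of 13.6 RPKM. It was followed by *Wnt5a* at 10.1 RPKM, a ligand known mostly for signalling without β-catenin, and by *Wnt6* at 6.85 RPKM. The other 12 ligands lay below 5 RPKM, down to *Wnt9b* at 0.609 RPKM. The ligands summed to 50.4, 60.1 and 49.4 RPKM in *Pax9*-null libraries and to 52.6, 54.0 and 48.6 RPKM in wild-type libraries, so that the total overlapped between genotypes.

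*Wnt2* had log2 RPKM values of 4.01, 4.34 and 3.59 in *Pax9*-null embryos and 3.85, 3.79 and 2.30 in wild-type embryos. The groups overlapped, and wild-type replicate 3 lay far below the other 5 libraries. The log2 difference was 0.67 (SE 0.40, adjusted *P*=0.275), and 0.16 (adjusted *P*=0.615) without wild-type replicate 3. *Wnt11*, a ligand of the outflow tract and second heart field, showed the same library apart, with values of −0.28, 0.52 and 0.32 against 0.75, 0.31 and −0.87. Its log2 difference was 0.12 (SE 0.42, adjusted *P*=0.863) and turned to −0.35 (adjusted *P*=0.452) without that library. *Wnt5a* had the smallest standard error of the ligands, at 3.28, 3.43 and 3.21 against 3.43, 3.30 and 3.32 (log2 difference −0.04, SE 0.10).

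As deposited, the ligand with the largest difference was *Wnt7b* (ENSMUSG00000022382, chr15:85535437-85582473), an epithelial ligand that acts through β-catenin. Its log2 RPKM was 0.31, 0.28 and −0.04 in *Pax9*-null and 1.08, 0.22 and 1.28 in wild-type libraries, with 63, 61 and 50 reads against 118, 63 and 134. Wild-type replicate 2 lay within the *Pax9*-null range, and the log2 difference of −0.68 (SE 0.29) had an adjusted *P* of 0.144. Without wild-type replicate 2 it was −0.995 with an adjusted *P* of 0.0394, without wild-type replicate 3 it was −0.47 (0.313), and with the trends removed −0.30 (0.573). *Wnt1*, which marks the dorsal neural tube, had a log2 difference of −0.63 (SE 0.26, adjusted *P*=0.132). It was called without *Pax9*-null replicate 2 (−0.83, adjusted *P*=0.0895), as was *Wnt4* (−0.73, 0.0823; −0.50, 0.186 with all libraries), and *Wnt7a* was called without wild-type replicate 1 (−0.69, 0.0643; −0.45, 0.204 with all libraries). The smallest leave-one-out differences were −0.47 (adjusted *P*=0.289) for *Wnt1* and −0.26 (0.451) for *Wnt7a*, both without wild-type replicate 3, and −0.33 (0.463) for *Wnt4* without *Pax9*-null replicate 1. *Wnt2b* had a log2 difference of −0.56 (SE 0.24, adjusted *P*=0.139). *Wnt2b* was the one ligand with no overlap, at 0.16, −0.03 and −0.47 against 0.73, 0.36 and 0.27. Trend removal brought the differences to −0.46 for *Wnt1*, −0.20 for *Wnt4*, −0.22 for *Wnt7a* and −0.25 for *Wnt2b* (adjusted *P* 0.329 to 0.612), and that of *Wnt11* to 0.44 (0.543). The largest ligand difference was then that of *Wnt2*, at 0.58 (adjusted *P*=0.412), and that of *Wnt16* was −0.58 (0.227). Over the 15 ligands the median log2 difference was −0.21, or 0.08 after the length and GC trends were removed. The ligand genes had a median GC content of 56.5%.

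The receptor and co-receptor genes were together more abundant than the ligands, summing to 161, 183 and 159 RPKM in *Pax9*-null and 167, 174 and 196 RPKM in wild-type libraries. *Fzd3* (ENSMUSG00000007989, chr14:65192449-65262463), a Frizzled known for axon guidance and planar polarity, was the most abundant at a mean of 41.0 RPKM, close to *Fzd7* at 39.7 RPKM. *Fzd2* and *Fzd10* followed at 20.4 and 18.7 RPKM, and *Fzd9* (2.33 RPKM) and *Fzd5* (1.37 RPKM) were the least abundant. Of the co-receptors *Lrp6* (15.9 RPKM) exceeded *Lrp5* (4.88 RPKM). Of the 11 genes, *Fzd1* and *Lrp5* were called lower and none higher (all genes, 12.0% and 14.7%), with a median log2 difference of −0.11. With the length and GC trends removed the median turned to 0.0049, 5 of the 11 were below 0 and none was called.

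*Fzd3* values were 5.50, 5.36 and 5.19 against 5.24, 5.17 and 5.64, with a log2 difference of −0.00 (SE 0.14, adjusted *P*=0.998). It was highest in wild-type replicate 3, and its difference was 0.15 without that library (adjusted *P*=0.425). *Fzd10* was also highest in wild-type replicate 3, at 4.79 against 3.93 to 4.17 in the other 5 libraries, and its log2 difference of −0.34 became −0.13 without it. With the length and GC trends removed the *Fzd10* difference was −0.07 (adjusted *P*=0.841).

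*Fzd1* (ENSMUSG00000044674, chr5:4753839-4758035), which encodes a Frizzled able to signal through β-catenin, had the tightest groups of the members called lower. It stood at a log2 RPKM of 3.60, 3.56 and 3.50 in *Pax9*-null and 3.97, 3.90 and 3.85 in wild-type libraries, from 588, 571 and 555 reads against 836, 771 and 763. The genotypes did not overlap, and the log2 difference was −0.35 (SE 0.084, adjusted *P*=0.0450), a level of 78.2% of wild-type. Leaving out *Pax9*-null replicate 1 or 3 raised the adjusted *P* to 0.159 or 0.128. With the length and GC trends removed the difference was −0.06 (adjusted *P*=0.663).

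*Lrp5* (ENSMUSG00000024913, chr19:3584828-3686564), the gene of the co-receptor that receives the Wnt signal beside Frizzled, had the largest difference among the receptors as deposited. Its values were 1.59, 2.09 and 1.92 in *Pax9*-null and 2.87, 2.43 and 2.47 in wild-type libraries, without overlap. Wild-type replicate 1 was the highest and *Pax9*-null replicate 1 the lowest. The log2 difference was −0.72 (SE 0.18, adjusted *P*=0.0482), or 60.7% of wild-type. It was not called without *Pax9*-null replicate 1 (adjusted *P*=0.176) or replicate 3 (0.128), and the difference was −0.24 (adjusted *P*=0.270) with the trends removed. Its close relative *Lrp6* had overlapping groups, at 3.84, 4.05 and 3.64 against 4.29, 3.91 and 4.11 (log2 difference −0.26, SE 0.14, adjusted *P*=0.218). *Fzd5*, a receptor of endoderm and eye, was the one member with every *Pax9*-null library above every wild-type library, at 0.67, 0.86 and 0.34 against 0.33, 0.15 and 0.24. Of its exon bases 17.8% are shared with *Gm38058* on the opposite strand. Its lowest *Pax9*-null and highest wild-type libraries nearly touched, and the log2 difference of 0.38 (SE 0.20) had an adjusted *P* of 0.204. Trend removal brought *Fzd5* to 0.67 (adjusted *P*=0.118) and *Lrp6* to −0.04 (0.802). Leave-one-out differences of *Lrp6* lay between −0.36 and −0.16.

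**Figure D2:**
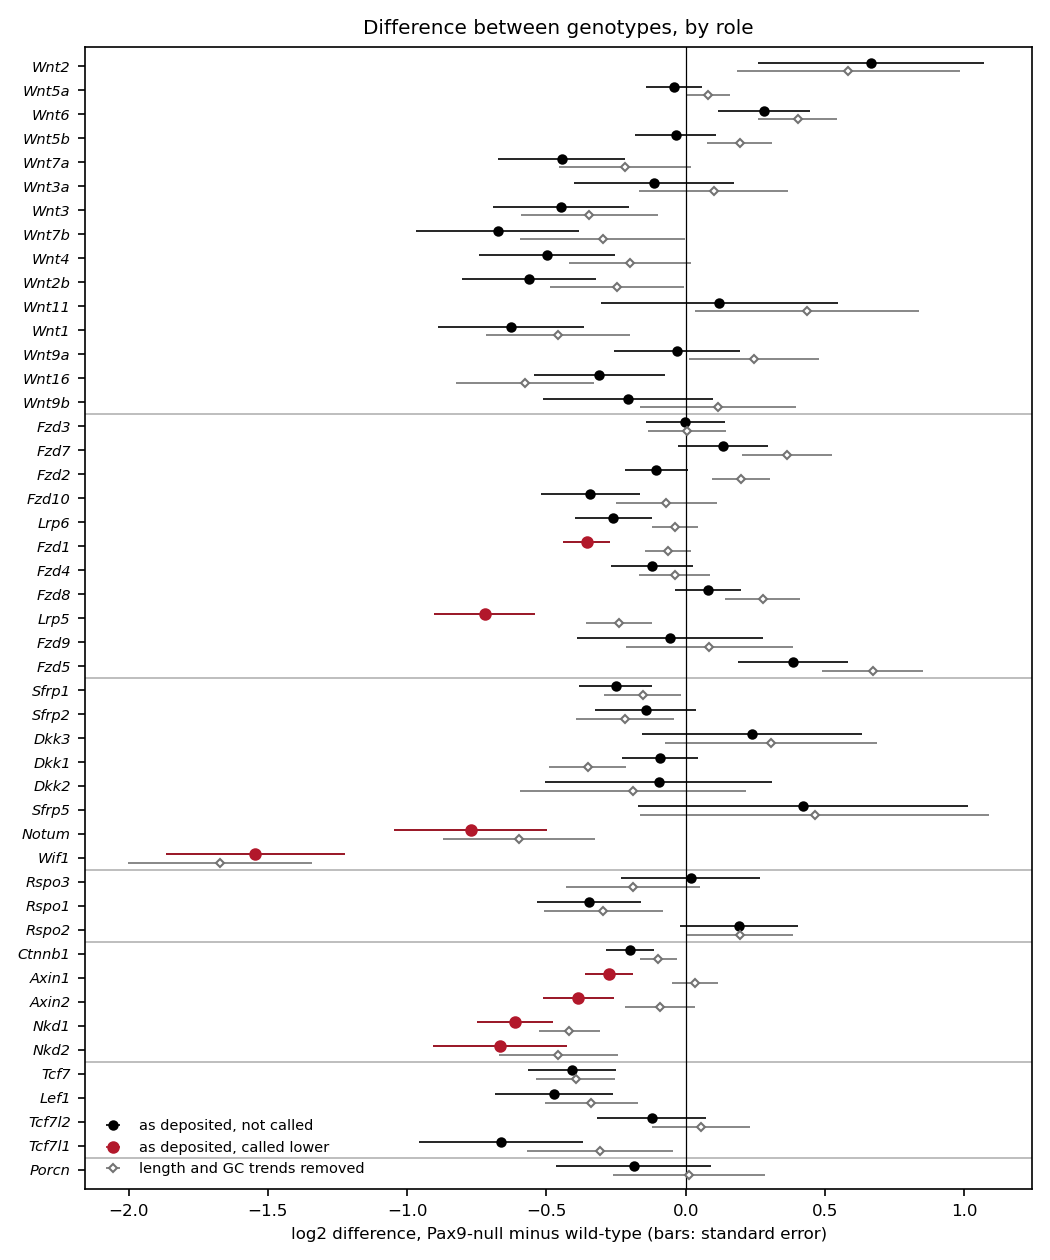
Log2 difference of *Pax9*-null minus wild-type for each Wnt pathway gene, with the standard error as the bar, in the same order as the plot of levels. Filled points are the values as deposited, red where the gene was called lower, and open grey diamonds are the values with the length and GC trends removed; 37 of the filled points and 27 of the diamonds lie below 0.

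The secreted antagonists ranged from abundant to barely detected transcripts. *Sfrp1* (ENSMUSG00000031548, chr8:23411502-23449632), which encodes a soluble protein with a Frizzled-like Wnt-binding domain, was the most abundant at a mean of 51.7 RPKM. *Sfrp2* followed at 30.0 RPKM, and then *Dkk3* (6.37), *Dkk1* (4.56), *Dkk2* (2.64) and *Sfrp5* (1.82 RPKM). *Notum* (0.880 RPKM) and *Wif1* (0.601 RPKM), the least abundant of the 8 genes, were the only antagonists called, both lower (all genes, 12.0%). The median log2 difference of the 8 was −0.12, or −0.20 with the trends removed, when *Wif1* alone was called.

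*Wif1* (ENSMUSG00000020218, chr10:121033960-121100650) encodes WIF1, a secreted protein that binds Wnt ligands and holds them away from their receptors. Its log2 RPKM was −1.91, −1.90 and −1.44 in *Pax9*-null embryos and 0.21, −0.78 and −0.05 in wild-type embryos. These values rest on 7, 7 and 10 reads against 35, 17 and 29. No *Pax9*-null library reached the lowest wild-type library. All 3 *Pax9*-null libraries were under the 0.5 RPKM required of the mean, so that *Wif1*, alone among the 47, was tested only through its level in wild-type. With no filter on level it was also called (adjusted *P*=0.0369). The log2 difference of −1.54 (SE 0.32, adjusted *P*=0.0385) was the largest of the 47 genes and corresponds to 34.3% of the wild-type level. With the length and GC trends removed it was −1.67 (adjusted *P*=0.0688). Leaving out *Pax9*-null replicate 1 or 3 raised the adjusted *P* to 0.157 or 0.122, with log2 differences between −1.83 and −1.34 over the 6 fits that left out one library. At so few reads the size of the difference is known less well than for the abundant members.

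*Notum* (ENSMUSG00000042988, chr11:120653788-120661175) encodes an enzyme that removes the lipid from Wnt proteins and is itself a common target of the pathway. Its values were −0.95, −0.12 and −0.87 in *Pax9*-null and 0.33, 0.04 and 0.01 in wild-type libraries, from 14, 25 and 15 reads against 38, 30 and 30. The groups did not overlap, although *Pax9*-null replicate 2 came close to the wild-type range. The log2 difference was −0.77 (SE 0.28, adjusted *P*=0.0946). It was called in 1 of the 6 fits without one library, that without *Pax9*-null replicate 2 (adjusted *P*=0.0588), and the adjusted *P* was between 0.131 and 0.275 in the other 5. With the trends removed the difference was −0.60 (adjusted *P*=0.244). Of the *Notum* exon bases, 29.4% are shared with *Notumos* on the opposite strand, and counting did not use strand. Which gene, if any, was given the reads in the shared bases is not known from the deposited values.

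*Sfrp1* values were 5.62, 5.74 and 5.29 against 5.66, 5.84 and 5.92, with a log2 difference of −0.25 (SE 0.13, adjusted *P*=0.208; −0.12 without *Pax9*-null replicate 3, 0.488). *Sfrp2* differed by −0.14 (SE 0.18, adjusted *P*=0.601). Its difference rested on single wild-type libraries, being −0.37 and called without replicate 1 (adjusted *P*=0.0645) and −0.0024 without replicate 3 (0.995), and 16.1% of its exon bases are shared with *Gm26771* on the opposite strand. *Dkk1*, a target of the pathway that blocks LRP5 and LRP6, differed by −0.09 (SE 0.14, adjusted *P*=0.653; −0.18 to −0.0452 with one library left out). Trend removal brought *Dkk1* to −0.35 (adjusted *P*=0.198), *Sfrp1* to −0.16 (0.533) and *Sfrp2* to −0.22 (0.487). *Sfrp5*, a foregut antagonist, varied more within each genotype than between them, at 1.02, 1.71 and −0.12 against 1.20, 0.86 and −0.72. *Dkk3*, a divergent Dickkopf, ranged over 2.91, 2.80 and 2.40 against 3.17, 2.74 and 1.48. In both genes wild-type replicate 3 was the lowest library, and without it their log2 differences went from 0.42 to −0.16 and from 0.24 to −0.25. Neither was called in either fit.

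Of the R-spondins, *Rspo3* (ENSMUSG00000019880, chr10:29452416-29535867), an R-spondin with known roles in heart and vessels, was the most abundant at 6.99 RPKM. Its log2 RPKM was 3.17, 2.42 and 2.74 against 3.22, 2.63 and 2.42 (log2 difference 0.02, SE 0.25, adjusted *P*=0.967), and 13.1% of its exon bases are shared with opposite-strand *Gm48159*. *Rspo1* (ENSMUSG00000028871, chr4:124986430-125009099) had the largest difference of the 3, at 1.65, 1.64 and 1.21 against 1.73, 1.70 and 2.11. Its genotypes did not overlap, though by a narrow margin, and the log2 difference of −0.35 (SE 0.19) had an adjusted *P* of 0.223. *Rspo2* had a log2 difference of 0.19 (SE 0.21). With one library left out *Rspo1* ran from −0.42 to −0.20 and *Rspo2* from 0.0517 to 0.41. None of the 3 was called (all genes, 12.0% lower and 14.7% higher), and their median of 0.02 turned to −0.19 with the trends removed.

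The genes of signal transduction and feedback held 4 of the 8 members called lower. *Ctnnb1* (ENSMUSG00000006932, chr9:120929216-120960507), the β-catenin gene, was the most abundant of all 47 at a mean of 182 RPKM. *Axin1* followed at 20.5, *Axin2* at 11.2, *Nkd1* at 6.51 and *Nkd2* at 3.26 RPKM. All 5 had a lower mean in *Pax9*-null libraries, 4 were called (all genes, 12.0%), and the median log2 difference was −0.39. In *Ctnnb1*, *Axin1*, *Axin2* and *Nkd1* every *Pax9*-null library lay below every wild-type library (all genes, 20.1%). With the length and GC trends removed the median was −0.10 and none of the 5 was called. Summed over the 5 genes, mostly *Ctnnb1*, the level was 201, 213 and 202 RPKM in *Pax9*-null and 251, 235 and 240 RPKM in wild-type libraries.

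*Ctnnb1* had log2 RPKM values of 7.38, 7.47 and 7.36 in *Pax9*-null and 7.65, 7.59 and 7.58 in wild-type embryos, from 10006 to 10628 reads against 12386 to 13260. The groups were tight and separate, but the log2 difference of −0.20 (SE 0.086, 87.0% of wild-type) did not pass the test (adjusted *P*=0.139). Of its exon bases 14.6% are shared with *Ulk4* on the opposite strand. With quantile normalization the difference was −0.51 and was called (adjusted *P*=0.0434), and with the trends removed it was −0.10 (0.404).

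*Nkd1* (ENSMUSG00000031661, chr8:88521354-88594884), a Naked cuticle gene whose product binds Dishevelled and which is a well-known target of β-catenin, had the lowest adjusted *P* of the role. Its values were 2.19, 2.38 and 2.50 in *Pax9*-null and 3.16, 2.81 and 2.95 in wild-type libraries, from 241, 272 and 302 reads against 515, 394 and 441. The genotypes did not overlap. This log2 difference was −0.61 (SE 0.14, adjusted *P*=0.0420), or 65.4% of wild-type. The adjusted *P* became 0.165 when *Pax9*-null replicate 1 was left out and 0.124 when replicate 3 was, and with the trends removed the difference was −0.42 (adjusted *P*=0.116). Its relative *Nkd2* (ENSMUSG00000021567, chr13:73818534-73847631) had values of 1.06, 1.21 and 1.64 against 2.40, 1.61 and 1.89. It was the one member called lower whose groups overlapped, through *Pax9*-null replicate 3 and wild-type replicate 2. Its log2 difference was −0.67 (SE 0.24, adjusted *P*=0.0971), and it was called in 1 of the 6 fits without one library, that without wild-type replicate 2 (adjusted *P*=0.0645; 0.132 to 0.281 in the other 5). With the trends removed the difference was −0.46 (adjusted *P*=0.251).

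*Axin2* (ENSMUSG00000000142, chr11:108920349-108950783), the most widely used readout of canonical Wnt activity, had log2 RPKM values of 3.13, 3.36 and 3.31 in *Pax9*-null and 3.58, 3.49 and 3.89 in wild-type libraries. These came from 558, 649 and 642 reads against 834, 765 and 1025. The groups did not overlap, with wild-type replicate 3 the highest. This gave a log2 difference of −0.39 (SE 0.13, adjusted *P*=0.0823), or 76.6% of wild-type. It was called in the fit without wild-type replicate 2 (adjusted *P*=0.0710) and in none of the other 5 that left out one library, where the adjusted *P* was between 0.105 and 0.254. With the trends removed the difference was −0.09 (adjusted *P*=0.688).

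*Axin1* (ENSMUSG00000024182, chr17:26138688-26195811), which encodes the scaffold of the β-catenin destruction complex and is not itself a known target, had values of 4.23, 4.15 and 4.26 against 4.57, 4.38 and 4.53. Its log2 difference was −0.28 (SE 0.087, adjusted *P*=0.0733), or 82.6% of wild-type. With the trends removed it turned to 0.03 (adjusted *P*=0.836), the only member called lower whose direction changed in that fit. As for *Axin2*, the one fit without a library in which it was called was that without wild-type replicate 2 (adjusted *P*=0.0646; 0.141 to 0.207 in the other 5).

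**Figure D3:**
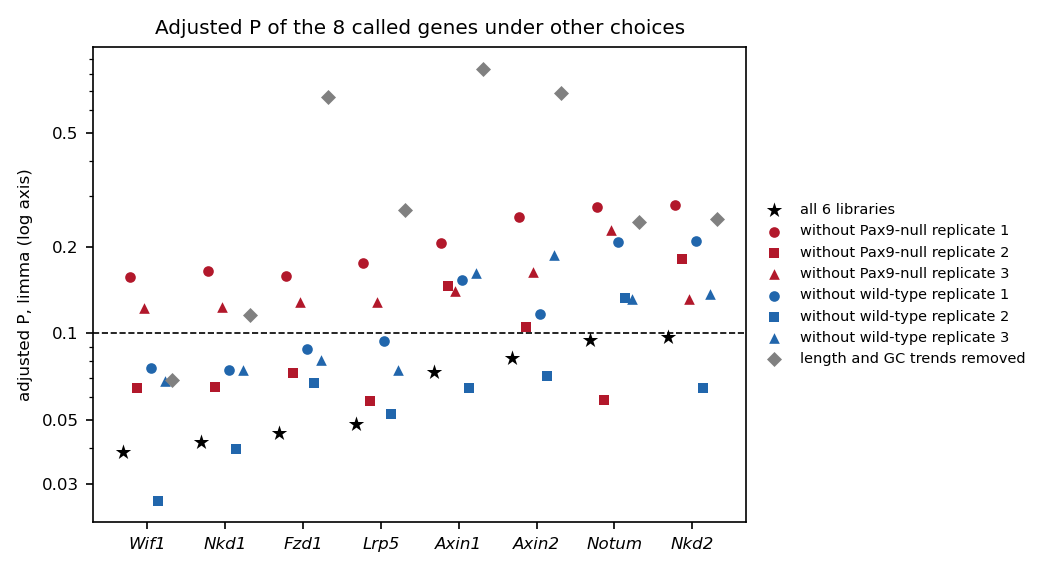
Adjusted *P* by limma (log axis) of the 8 Wnt genes called lower, with all 6 libraries (star) or one library left out (red for *Pax9*-null, blue for wild-type). Grey diamonds have the length and GC trends removed. The dashed line is the threshold of 0.1; the circles and triangles of *Pax9*-null replicates 1 and 3 lie above it for all 8 genes.

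All 4 transcription factor genes had a lower mean in *Pax9*-null libraries (all genes, 50.2%) and none was called lower (all genes, 12.0%), with a median log2 difference of −0.44 (−0.32 with the trends removed). Their sums were 9.45, 11.8 and 10.8 RPKM in *Pax9*-null and 16.9, 13.4 and 12.4 RPKM in wild-type libraries, without overlap. *Tcf7* (ENSMUSG00000000782, chr11:52252371-52283014), which encodes TCF1, was the most abundant at 7.76 RPKM. Its log2 RPKM was 2.59, 2.80 and 2.78 against 3.42, 3.15 and 2.83, the groups being barely separate. The log2 difference was −0.41 (SE 0.16, adjusted *P*=0.113), just outside the threshold, and with one library left out it ran from −0.27 (adjusted *P*=0.247, without wild-type replicate 1) to −0.56 (adjusted *P*=0.0705, without wild-type replicate 3).

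*Tcf7l1* (ENSMUSG00000055799, chr6:72626378-72789254), which encodes TCF3, mainly a repressor of Wnt targets, had the largest difference of the role as deposited, at −0.66 (SE 0.29, adjusted *P*=0.150). Its values were −0.95, 0.10 and −0.42 against 0.37, 0.03 and 0.32, and *Pax9*-null replicate 2 lay above the lowest wild-type library. Without that library it was called, at −0.93 (adjusted *P*=0.0791), whereas it was −0.40 (0.395) without *Pax9*-null replicate 1 and −0.31 (0.510) with the trends removed. *Lef1*, a factor and target of the pathway that shares 13.7% of its exon bases with opposite-strand *Gm43352*, had a log2 difference of −0.47 (SE 0.21, adjusted *P*=0.156), at 0.71, 1.16 and 0.75 against 1.70, 1.16 and 1.19. *Tcf7l2* differed by −0.12 (SE 0.19). With one library left out *Lef1* ran from −0.62 to −0.30 and *Tcf7l2* from −0.26 to −0.0302. *Porcn* (ENSMUSG00000031169, chrX:8193848-8206525), whose product adds the lipid to every Wnt protein, had values of 0.32, 0.40 and 1.06 against 0.41, 0.75 and 1.18, with a log2 difference of −0.19 (SE 0.28, adjusted *P*=0.662).

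Cell type markers were set beside these values, because the dissected region holds several tissues. Of the 8 pharyngeal arch markers all were in the table, summing to 40.7, 42.7 and 36.4 RPKM in *Pax9*-null and 41.0, 39.2 and 40.2 RPKM in wild-type libraries, with *Hoxa2* the most abundant. *Tbx1*, a transcription factor gene of the pharyngeal endoderm and mesoderm, was the one called lower, where 12.0% of all tested genes were (log2 difference −0.42, limma adjusted *P*=0.0473; 0.157 without *Pax9*-null replicate 1, 0.131 without replicate 3 and 0.103 without wild-type replicate 3). The *Tbx1* difference was −0.09 (adjusted *P*=0.703) with the trends removed. Apart from sequencing, the study reports reduced *Tbx1* in *Pax9*-null pharyngeal tissue at E9.5 by qPCR and by in situ hybridisation. The pharyngeal endoderm markers, of which 8 of 9 were in the table and *Nkx2-1* was not analysed here, summed to 54.6, 69.0 and 61.6 against 55.3, 63.5 and 54.9 RPKM. None was called (all genes, 12.0% lower and 14.7% higher). The sum was mostly *Epcam*, at a mean of 33.4 RPKM and a log2 difference of 0.12. *Pax1* was lower in every *Pax9*-null library than in any wild-type library (−0.74, adjusted *P*=0.101; −0.40 with the trends removed), *Cdh1* was at 69.5% of wild-type (−0.53, 0.134) and *Ripply3* at 148% (0.57, 0.198). With the trends removed the difference was −0.43 for *Cdh1* and 0.21 for *Ripply3*. The sample labels name sorted thymic epithelial cells in their extraction protocol, unlike the dissection described in the methods. Of the 6 thymic epithelial markers 3 were in the table, and *Foxn1*, *Psmb11* and *H2-Aa* were not. The most abundant of the 3 present, *Dll4*, had a mean of 1.65 RPKM, whereas the cardiomyocyte gene *Myl7* had 500 RPKM and *Hbb-y* 1301 RPKM.

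Wild-type replicate 3 stood apart in heart transcripts. The 7 cardiomyocyte markers, led by *Myl7*, summed to 69.4 RPKM there, against 1195 and 1285 RPKM in wild-type replicates 1 and 2 and 1406, 1183 and 1052 RPKM in the *Pax9*-null libraries. *Wnt2*, *Wnt11*, *Dkk3* and *Sfrp5* were among the members lowest in the same library, whereas *Fzd3*, *Fzd10*, *Wnt3* and *Axin2* were among those highest in it. Over the 47 members it gave the lowest value in 5 (10.6%, against 14.1% of all genes). It gave the highest value in 16 (34.0%, against 14.3%). Neuronal markers were also highest there. The 10 neuron markers summed to 90.5, 63.3 and 75.7 RPKM in *Pax9*-null and 99.1, 102 and 181 RPKM in wild-type libraries, without overlap, and 4 of the 10 (*Elavl3*, *Nefm*, *Cntn2* and *Chgb*) were called lower, where 12.0% of all tested genes were. *Tubb3* was the most abundant. None of the 4 was called without *Pax9*-null replicate 3 (adjusted *P* between 0.124 and 0.146), nor *Elavl3* without *Pax9*-null replicate 1 (0.155) or *Chgb* without wild-type replicate 1 (0.102) or 3 (0.106). *Cntn2* was called with the trends removed (adjusted *P*=0.0905) and the other 3 were not (0.110 to 0.136). The part of heart, neuron and blood transcripts in the Wnt gene differences was not tested. Without wild-type replicate 3, *Wif1*, *Nkd1*, *Fzd1*, *Lrp5* and *Tcf7* were the 5 members called lower.

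**Figure D4:**
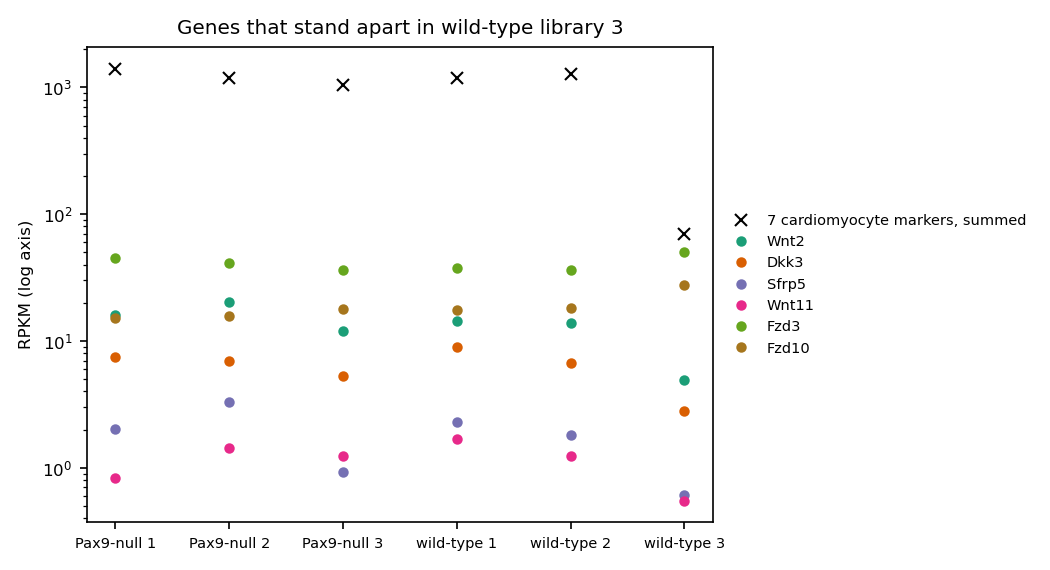
RPKM (log axis) of 6 Wnt genes and of the 7 cardiomyocyte markers, summed, in each library. In wild-type replicate 3 the marker sum was 69.4 RPKM against 1052 RPKM or more elsewhere, *Wnt2*, *Dkk3*, *Sfrp5* and *Wnt11* were at their lowest, and *Fzd3* and *Fzd10* at their highest.

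The remaining marker lists covered neural crest, endothelium, neural tube and surface ectoderm. The 7 neural crest markers summed to 466, 445 and 454 RPKM in *Pax9*-null and 396, 541 and 524 RPKM in wild-type libraries, mostly *Crabp1*, with *Sox10* called lower and *Twist1* higher. Neither was called without *Pax9*-null replicate 1 (adjusted *P*=0.248 for *Sox10* and 0.161 for *Twist1*) or without replicate 3 (0.199 and 0.128). *Sox10* was also above the threshold without any one of the wild-type libraries (0.141, 0.123 and 0.149 for replicates 1 to 3). Their differences with the trends removed were −0.29 for *Sox10* (adjusted *P*=0.340) and 0.30 for *Twist1* (0.151). *Crabp1* was not called as deposited (−0.12, adjusted *P*=0.618). With the trends removed it was called lower (−0.49, 0.0976), where 1.92% of all genes were. The 5 endothelial markers, led by *Tek*, summed to 44.3, 53.9 and 39.8 against 82.6, 51.3 and 43.8 RPKM, with *Cdh5* called lower (adjusted *P*=0.0735; 0.236 without *Pax9*-null replicate 1, 0.190 without replicate 3, 0.120 without wild-type replicate 1 and 0.175 with the trends removed). The 9 neural tube progenitor markers, led by *Zic1*, summed to 50.6, 44.8 and 54.4 against 37.2, 53.2 and 67.3 RPKM, with none called. Each of the calls as deposited was 1 gene of its list (all genes, 12.0% called lower and 14.7% higher). Of the surface ectoderm markers, 4 of 5 were in the table, led by *Grhl2* (*Krt14* was not analysed here), summing to 8.43, 9.63 and 8.64 against 11.3, 8.73 and 7.92 RPKM with none called.

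Genes of the pathway outside the 47 were taken from a list of co-receptors, destruction complex members, cofactors, planar cell polarity genes and targets. Of the 82 genes on it, 73 were in the table and 69 were tested. Of these, 11 were called lower (15.9%, against 12.0% of all tested genes) and 2 higher (2.90%, against 14.7%), with a median log2 difference of −0.24, which became −0.04, with none called, when the length and GC trends were removed. *Lgr5*, *Lgr6*, *Rnf43* and *Prickle3* were below 0.5 RPKM and not tested, and *Cdx2*, *Cdx4*, *Celsr3*, *Cer1*, *Cthrc1*, *Fgf20*, *Hic1*, *Prickle4* and *Tle2* were not analysed here.

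Planar cell polarity, the branch that orients cells without β-catenin, had 4 of its 15 tested genes called lower, where 12.0% of all tested genes were. The largest log2 difference was that of *Daam2*, a formin that links Dishevelled to actin, at −1.07 (SE 0.25, adjusted *P*=0.0433). Values in log2 RPKM were 0.63, 1.24 and 0.91 in *Pax9*-null and 2.44, 1.62 and 1.92 in wild-type libraries, without overlap. The atypical cadherin genes *Celsr1* (−0.89, adjusted *P*=0.0306) and *Celsr2* (−0.93, 0.0463) and the polarity scaffold *Scrib* (−0.50, 0.0539) also fell. Without *Pax9*-null replicate 1 the 4 had adjusted *P* values between 0.114 and 0.177 and without replicate 3 between 0.124 and 0.128, and *Scrib* was also lost without wild-type replicate 3 (0.111). With the trends removed the differences were −0.67 for *Daam2*, −0.28 for *Celsr1*, −0.32 for *Celsr2* and −0.05 for *Scrib*.

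At the membrane, *Ptk7*, a Wnt co-receptor of planar polarity, fell (−0.61, SE 0.12, adjusted *P*=0.0343), at 4.68, 5.15 and 4.92 against 5.56, 5.51 and 5.52. *Kremen1*, a receptor for Dickkopf, fell by 0.56 on the log2 scale (adjusted *P*=0.0498), and *Ryk*, a Wnt receptor related to tyrosine kinases, was higher by 0.33 (adjusted *P*=0.0553). In the cytoplasm, 4 of the 21 tested genes of the destruction complex and its regulators were called lower and 1 higher (all genes, 12.0% and 14.7%). *Gsk3a* (−0.46, adjusted *P*=0.0508), *Apc* (−0.78, 0.0898), *Csnk1d* (−0.30, 0.0603) and *Amer2* (−0.49, 0.0918) were lower and *Csnk1a1*, the casein kinase gene that primes β-catenin for destruction, was higher (0.35, 0.0529). Of the nuclear cofactors 1 of 9 was called lower, a share no higher than the 12.0% of all genes. It was *Bcl9l*, a coactivator that binds β-catenin (−0.96, SE 0.27, adjusted *P*=0.0601). None of these 9 was called with the trends removed, and the differences were −0.22 for *Ptk7*, −0.13 for *Kremen1*, 0.34 for *Ryk*, −0.19 for *Gsk3a*, −0.60 for *Apc*, −0.04 for *Csnk1d*, −0.30 for *Amer2*, 0.42 for *Csnk1a1* and −0.43 for *Bcl9l*. Without *Pax9*-null replicate 1 these 9 genes had adjusted *P* values between 0.106 (*Ptk7*) and 0.254 (*Apc*), and without replicate 3 between 0.128 (*Ptk7*) and 0.222 (*Apc*). *Ryk*, *Kremen1*, *Apc*, *Csnk1d*, *Amer2* and *Bcl9l* were above the threshold without wild-type replicate 1 (0.105 to 0.181), as they were without wild-type replicate 3 together with *Csnk1a1* (0.101 to 0.217), and *Amer2* was also above it without *Pax9*-null replicate 2 (0.139). *Apc* ran from −0.99 to −0.46 over the fits with one library left out.

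The other antagonists (0 of 6 called) differed most in *Trabd2b*, a protease that inactivates Wnt proteins (−0.67, SE 0.33, adjusted *P*=0.195; −0.91 to −0.36 with one library left out and −0.43 with the trends removed). *Wls*, the carrier that brings Wnt proteins to the cell surface, had a log2 difference of 0.17 (SE 0.086, adjusted *P*=0.192). None of the 6 other textbook targets was called (all genes, 12.0% lower and 14.7% higher). *Cdx1* had the largest difference with all libraries (−0.33, SE 0.32, adjusted *P*=0.491), but −0.12 without wild-type replicate 3 and −0.61 without *Pax9*-null replicate 2. *T* differed by 0.27, *Sp5* by 0.13, *Ccnd1* by −0.13, *Myc* by 0.09 and *Tnfrsf19* by 0.09. Trend removal brought *Sp5* to 0.22, *Ccnd1* to −0.02, *Myc* to 0.17 and *Tnfrsf19* to 0.15. *Sp5*, whose promoter core is printed above, had log2 RPKM values of 0.55, 0.94 and 1.09 against 0.41, 1.12 and 0.65, with full overlap. The 2 ligand genes with a core, *Wnt11* and *Wnt5b*, were not called either (log2 difference of *Wnt5b* −0.04, SE 0.15).

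**Figure D5:**
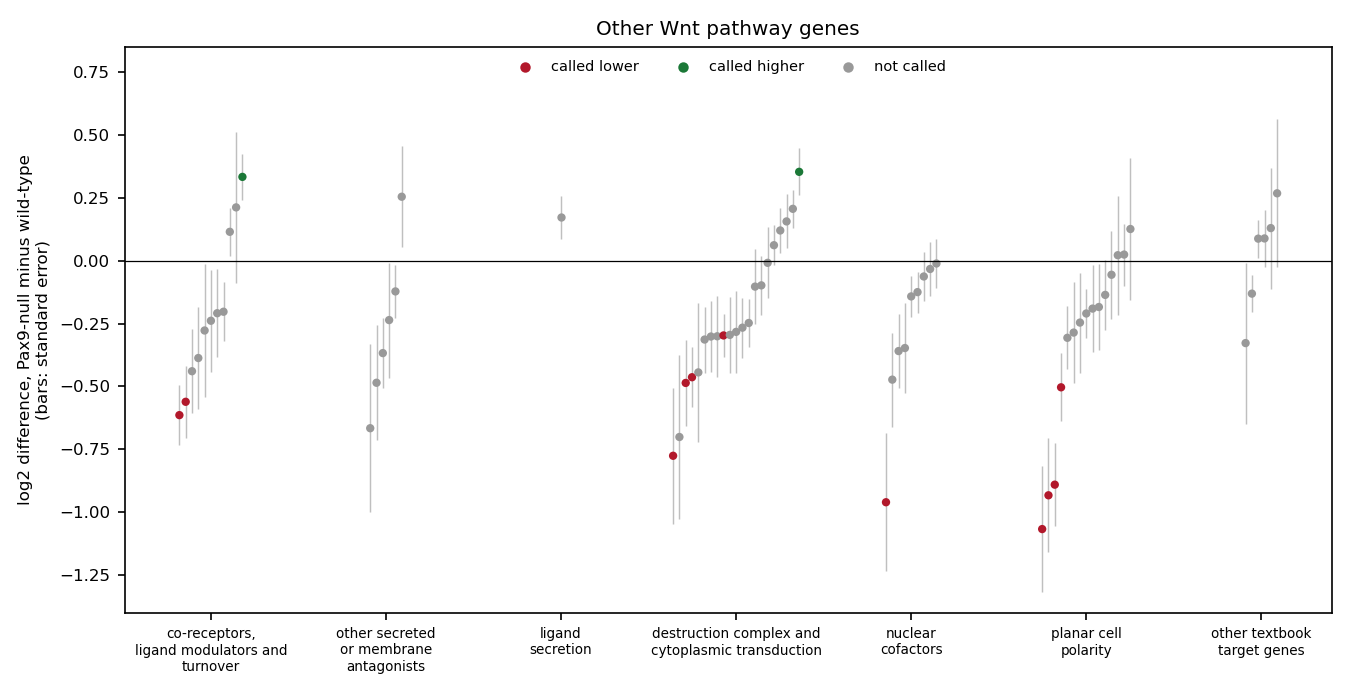
Log2 difference of *Pax9*-null minus wild-type for the 69 other Wnt pathway genes tested, by group, with the standard error as the bar; red points were called lower, green points higher and grey points neither. The lowest points are *Daam2* (−1.07), *Bcl9l* (−0.96) and *Celsr2* (−0.93), and the 6 other textbook targets lie between −0.33 and 0.27.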

How the data were processed

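Per the labels and the study's methods, with tool versions from the submitters' processing notes, the authors trimmed reads (Trimmomatic 0.32), kept uniquely aligned, non-redundant reads, sub-sampled libraries towards the smallest, aligned them to GRCm38 (STAR 2.5.1a in those notes, another version in the methods) and counted them on Ensembl genes without strand (featureCounts 1.5.1, default parameters). The deposited values are log2 RPKM with a prior count of 0.5, as worked out from the values; 87.7% to 88.0% of values under 200 reads were whole reads (within 0.05) at the GENCODE M21 length, and 5 members (*Fzd8*, *Nkd2*, *Rspo2*, *Tcf7l2*, *Wnt7b*) needed another length. The labels' extraction protocol (sorted cells) differs from the methods (dissected tissue), which are followed here. Depth sets the precision, and low genes rest on few reads.

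Here, limma 3.58.1 in R 4.3.3 (lmFit, eBayes with a trend, two-sided, Benjamini-Hochberg) compared 3 *Pax9*-null with 3 wild-type libraries over the 13547 genes that averaged 0.5 RPKM or more; the study's voom needs counts and was replaced. Calls had an adjusted *P* of at most 0.1. An exact permutation test of one gene cannot go below 0.1 with 3 against 3. Differences are *Pax9*-null minus wild-type, and percentages of wild-type come from mean log2 values. Trends with exon length and GC content were removed per library (splines of 5 degrees of freedom, 13524 genes). The fit was checked on simulated data. Coordinates are those of GENCODE M21 (GRCm38). Full values are given for called members and for the most abundant and the most different member of each role. Other pathway genes that were called or most different in their list are given by their differences; other genes were named after their values were seen. Members and lists were chosen with earlier results of these data known. The alternatives changed pseudocount, filter, scaling, trends, variance model, threshold, replicate block and libraries. One marker gene is not reported here and is left out of its list.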

Additional observations from a re-analysis of the deposited data

How the results depend on the processing

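With 3 libraries a genotype, counts moved with single libraries and with the variance model. Of the Wnt genes, 8 were called lower as reported, 4 at an adjusted *P* of at most 0.05, 4 with a mean of at least 5 RPKM (which leaves fewer members to test), 5 by eBayes without a trend, 2 with a replicate block, 1 with the length and GC trends removed, 9 with quantile normalization (*Ctnnb1* beside the 8), 11 with library weights (*Wnt1*, *Wnt7a* and *Fzd10* beside the 8), 7 with no filter (*Nkd2* lost at 0.101), 6 centred on library medians (*Notum* lost at 0.102 and *Axin2* at 0.104), and 0 to 8 with one library left out. No Wnt gene was called higher under any of the 17 alternatives. Over all genes the 1990 higher calls became 833 at 0.05, 882 with the block, 243 with the trends removed and 153 to 2006 with one library left out, and the 1621 lower calls became 502, 495, 260 and 22 to 1572. They were 2338 and 2031 with library weights, 1450 and 1368 by eBayes without a trend, 1928 and 1602 with no filter, and 2170 and 1403 centred. Quantile normalization turned the balance to 1433 higher and 1742 lower. The cause was not tested. The replicate block used numbers that do not pair the embryos: deviations of same-numbered libraries correlated at −0.02, −0.17 and 0.26. *Wif1* (adjusted *P*=0.0581) and *Nkd1* (0.0871) were the 2 called with it.

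Directions turned for these differences of Wnt genes. With the trends removed they were 0.0333 for *Axin1*, 0.20 for *Fzd2*, 0.0049 for *Fzd3*, 0.0844 for *Fzd9*, 0.0132 for *Porcn*, −0.19 for *Rspo3*, 0.0544 for *Tcf7l2*, 0.10 for *Wnt3a*, 0.0792 for *Wnt5a*, 0.19 for *Wnt5b*, 0.24 for *Wnt9a* and 0.12 for *Wnt9b*. Centred on library medians *Fzd3* was 0.0342 and *Wnt9a* 0.0037, and with library weights *Dkk2* was 0.16. With one library left out the ranges were −0.39 to 0.35 for *Dkk2*, −0.25 to 0.60 for *Dkk3*, −0.0916 to 0.15 for *Fzd3*, −0.0318 to 0.24 for *Fzd7*, −0.0016 to 0.16 for *Fzd8*, −0.36 to 0.20 for *Fzd9*, −0.42 to 0.0133 for *Porcn*, −0.18 to 0.25 for *Rspo3*, −0.16 to 0.91 for *Sfrp5*, −0.35 to 0.46 for *Wnt11*, −0.37 to 0.14 for *Wnt3a*, −0.10 to 0.0055 for *Wnt5a*, −0.15 to 0.0692 for *Wnt5b*, −0.12 to 0.15 for *Wnt9a* and −0.38 to 0.0796 for *Wnt9b*. None of these Wnt genes but *Axin1* was called as reported. Of the markers called, *Hbb-bh1* turned from 0.78 to −0.05 with the trends removed. None of the 47 Wnt genes, nor *Pax9*, turned with another pseudocount, filter, threshold, quantile normalization, the block or eBayes without a trend.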
